A study of Mus musculus with 2 samples.

Results

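The cells described here are regulatory T (Treg) cells with high S100a4 and S100a6, taken from a droplet single-cell RNA-seq comparison of long-lived and control Treg cells. A cell was chosen by 3 values in the count table: at least 5 unique molecular identifiers (UMIs, each counting 1 captured RNA molecule) of S100a4, at least 5 of S100a6, and 0 of both Tmem176a and Tmem176b. The rule chose 381 of 7024 cells, of which 136 of 3634 came from the control library and 245 of 3390 from the rescued library. All mice were C57BL/6 males that received 4-OHT, the tamoxifen metabolite that activates creERT2, when 14 days old and were analysed at 7 months, and in both groups Cd4creERT2 drove recombination in CD4-expressing cells and opened a tdTomato fate reporter at the R26 locus. Control mice (Foxp3DTR-GFP/y Cd4creERT2, cells of 5 mice pooled) expressed Foxp3 throughout life. Rescued mice (Foxp3LSL/y Cd4creERT2, cells of 4 mice pooled) carried a Foxp3 allele blocked by a loxP-flanked Thy1.1 STOP cassette, so that their Treg cells descended from cells in which Cre had removed the cassette around the time of treatment. Treg cells were sorted from pooled spleen and lymph nodes as TCRβ+CD4+CD8-NK1.1-Thy1.1- cells positive for the GFP that reports Foxp3. Each group is a single library, so the differences below are unreplicated and carry no p-value.

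S100a4 and S100a6 encode small calcium-binding proteins of the S100 family, which bind cytoskeletal and annexin partners. In T cells they are known as part of a programme of antigen-experienced, motile cells, together with the galectin Lgals1, the intermediate filament vimentin (Vim) and the LIM-domain protein Crip1. Resting Treg cells recirculate through lymph nodes with the help of Ccr7, whereas Treg cells that enter inflamed or barrier tissue carry other chemokine receptors such as Ccr2, the receptor for monocyte chemoattractant proteins.

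The S100 genes that chose the cells lie in the S100 gene cluster of chromosome 3, with S100a5 between them (build GRCm38, GENCODE vM21). S100a4 (ENSMUSG00000001020, chr3:90603771-90606045) and S100a6 (ENSMUSG00000001025, chr3:90612882-90624181) lie on the plus strand with their starts 9.11 kb apart. Their promoters are printed from RefSeq (GRCm38.p6, 250 bases before to 50 after the annotated start) beside that of Ccr2 (plus strand of chromosome 9), which the rule did not use and which led the genes higher in the class. Capitals mark matches, on either strand, to TATAAA (the TATA box), to CACCC (bound by KLF-type factors) or to TGANTCA (bound by AP-1-type factors). The 3 windows are chr3:90603520-90603819, chr3:90612644-90612943 and chr9:124101933-124102232.
S100a4 promoter: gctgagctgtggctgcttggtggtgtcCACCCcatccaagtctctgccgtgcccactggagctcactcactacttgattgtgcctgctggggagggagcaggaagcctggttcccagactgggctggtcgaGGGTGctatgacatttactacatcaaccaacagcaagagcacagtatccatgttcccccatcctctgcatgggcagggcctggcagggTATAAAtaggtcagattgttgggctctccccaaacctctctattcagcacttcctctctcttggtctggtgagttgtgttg
S100a6 promoter: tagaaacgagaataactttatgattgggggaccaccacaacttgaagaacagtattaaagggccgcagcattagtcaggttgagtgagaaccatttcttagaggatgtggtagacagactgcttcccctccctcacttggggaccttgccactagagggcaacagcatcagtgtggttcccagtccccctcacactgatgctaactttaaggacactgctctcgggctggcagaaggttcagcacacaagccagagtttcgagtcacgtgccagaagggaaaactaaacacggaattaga
Ccr2 promoter: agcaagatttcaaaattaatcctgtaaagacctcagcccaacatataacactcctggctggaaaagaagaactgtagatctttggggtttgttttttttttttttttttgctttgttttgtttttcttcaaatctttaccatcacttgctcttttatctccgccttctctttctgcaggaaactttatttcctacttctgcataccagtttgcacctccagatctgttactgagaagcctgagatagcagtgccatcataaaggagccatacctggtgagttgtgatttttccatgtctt
The S100a4 window held 1 TATAAA and 2 CACCC matches, none of which overlapped, and the S100a6 and Ccr2 windows held 0 matches to the 3 motifs. Among 32851 promoters of the same length, 13.6% held TATAAA, 57.5% CACCC and 7.81% TGANTCA. The windows of S100a4 and S100a6 thus shared none of these matches, which describes the windows only.

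The counts were as the libraries gave them, and some facts of the libraries bear on every value. Class cells were deep cells, with a median of 6065.5 UMIs in control (range 2127 to 22719) and 6356 in rescued (2087 to 23230), against 3704.5 and 3744 UMIs in the other cells. Their mitochondrial share was lower, with a median of 7.13% and 6.73% against 9.51% and 9.22%. No cell of the class shared a barcode with the other library (3 barcodes were shared in all). Of the cells with the highest 3.5% of doublet scores, 9 of 127 in control and 5 of 119 in rescued were class cells.

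The class made up 3.74% of control cells (95% exact Clopper-Pearson interval 3.15 to 4.41%) and 7.23% of rescued cells (6.38 to 8.15%). The intervals cover counting error only, and the mice behind each library cannot be told apart. The rule counts raw UMIs, and the share was higher in deeper cells. When the cells of a library were divided by total UMIs into 4 equal groups, it was 0.770, 1.43, 2.53 and 10.2% from the shallowest to the deepest group in control, and in the rescued library 0.943, 3.42, 6.73 and 17.8%. The rescued share was the higher in each depth group, although the intervals of the shallowest group overlapped (0.310 to 1.58% and 0.408 to 1.85%). The groups were cut within each library, so groups of the same rank were not matched for depth. The third held 3740 to 4645 UMIs in control and 3847 to 5172 UMIs in rescued cells. The deepest held 4653 to 46139 UMIs in control and 5177 to 37190 UMIs in rescued cells. With the thresholds set on UMIs scaled to a common cell total, the shares were 2.97% and 5.19%.

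**Figure D1:**
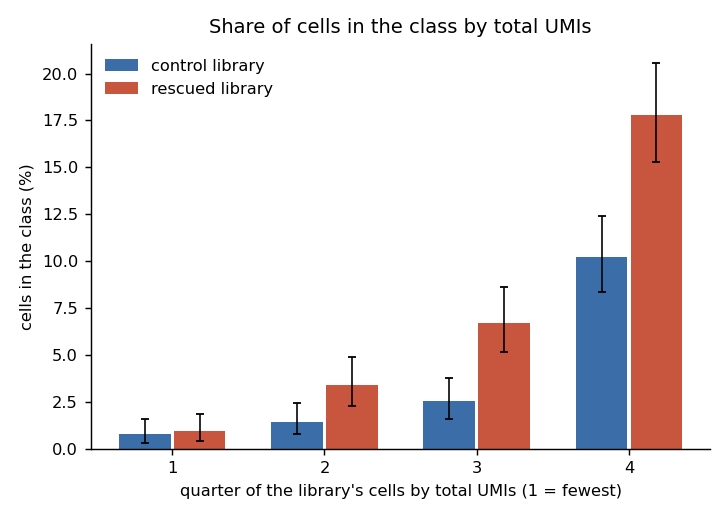
Percentage of cells in the class (bars, with 95% Clopper-Pearson intervals as lines) in each of 4 equal groups of a library's cells ranked by total UMIs. In both libraries the deepest group holds the highest share, 10.2% in control and 17.8% in rescued.

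Inside the class the median S100a4 count was 18 UMIs in the control library (range 5 to 128) and 17 in the rescued one (5 to 94). For S100a6 it was 14 UMIs (5 to 101) and 15 UMIs (5 to 138). These values were selected on and carry no test. The medians outside the class were 0 for both genes in both libraries, and 85.6% of control and 71.6% of rescued cells had 0 UMIs of S100a4. The threshold cut through a range. The lower of the 2 genes stood at exactly 5 UMIs in 15 control and 33 rescued class cells, and at exactly 4 in 22 and 41 cells just outside. Lgals1 was 758 and 1055 CPM (UMIs of a gene scaled to a summed total of 1000000) in the cells just inside and 895 and 770 CPM in those just outside, and Ccr2 was 286 and 249 CPM inside and 302 and 68.4 CPM outside (control and rescued). A further 108 control and 171 rescued cells passed the threshold for S100a4 only, 79 and 215 for S100a6 only, and 16 and 21 passed both but held a UMI of Tmem176a or Tmem176b and were left out.

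**Figure D2:**
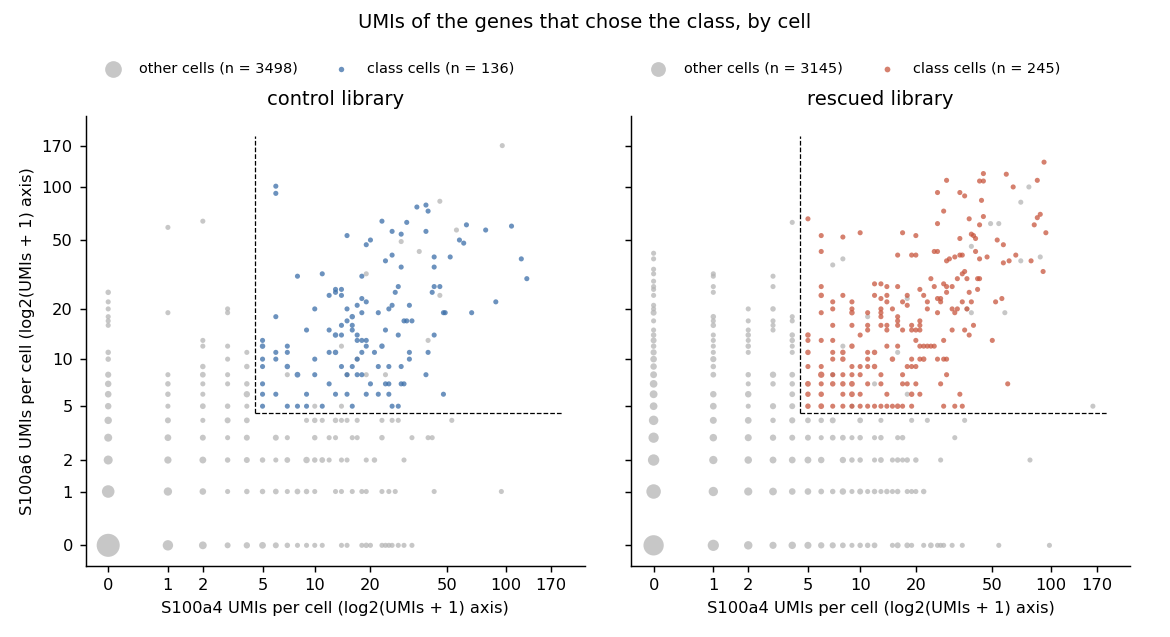
UMIs of S100a4 (x axis) and S100a6 (y axis) in each cell of the control (left) and rescued (right) library, both axes as log2(UMIs + 1), with point area growing with the number of cells at that pair of values. Coloured points are the 136 control and 245 rescued class cells, grey points all other cells, and the dashed lines the threshold of 5 UMIs, inside which grey points are cells with a Tmem176a or Tmem176b UMI.

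The cells carried T cell and Treg genes. Of 16 Treg identity genes, described further below, 6 were higher and 6 lower in the class in both libraries (32.4% and 38.2% of all genes tested). Past 2-fold in both libraries were 0 higher and 2 lower. Cd3e, a chain of the T cell receptor complex, was 717 CPM in control and 776 CPM in rescued class cells against 699 and 806 CPM in the other cells of the same libraries. Cd4 was 121 and 127 CPM against 112 and 116 CPM, and Ikzf2, which encodes the Treg factor Helios, 1978 and 1984 CPM against 1222 and 1619 CPM. Foxp3 (ENSMUSG00000039521, chrX:7573644-7595245), the gene engineered in both strains, was 74.8 CPM in control class cells against 81.3 CPM outside, and 566 CPM in rescued class cells against 456 CPM outside. Both libraries therefore kept near their own Foxp3 level inside the class, with log2 ratios of class to other cells of -0.12 (95% counting interval -0.50 to 0.23) and 0.31 (0.21 to 0.41). The alleles differ between the libraries, and what they contribute to the Foxp3 counts was not tested.

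Other T cells, B cells and myeloid cells were sought by their markers. In the control class Lyz2, Tyrobp, Ms4a1, Trdc and S100a9 had 0 UMIs and Cd79a 1 UMI, and in the rescued class they had 1, 2, 5, 5, 1 and 5 UMIs. Of 5 neutrophil markers in the table, Mmp9 had 5 and 50 UMIs, at 5.5 and 28.3 CPM against 3.30 and 9.88 CPM and in 4 and 23 cells, and Cxcr2 3 and 3 UMIs. Of the 3 other B cell genes with most UMIs, Cd74 (331 and 509 CPM) and Cd79b (33.0 and 54.8 CPM) were also found in the other cells at 143 and 326 CPM and at 36.3 and 47.2 CPM, and Cd22 had 5 and 8 UMIs. The summed level of 11 B cell markers was 373 CPM in the control and 578 CPM in the rescued class against 206 and 400 CPM outside. That of 12 monocyte, macrophage and dendritic cell markers was 678 and 609 CPM against 591 and 622 CPM, most of it Cst3 and Ctss. Of these markers, Lgals3 was 109 and 64.4 CPM against 4.54 and 5.88 CPM, and Cst3 233 and 249 CPM against 162 and 192 CPM. Ctss was lower, at 331 and 291 CPM against 414 and 416 CPM. Of the innate lymphoid cell markers, Il1rl1, Gata3 and Rora were counted in the class, while Kit had 1 and 0 UMIs, and the summed level of the list was 586 and 529 CPM against 213 and 263 CPM. The summed CD8 T and NK cell markers were 155 and 110 CPM against 70.1 and 70.9 CPM, most of it Nkg7 and Gzma, with Cd8a at 0 UMIs in both and Cd8b1 at 18 and 39 UMIs (19.8 and 22.0 CPM against 17.7 and 15.7 CPM). The part of such markers in the results below was not tested. The 4 markers that gave the class its working name were all high, as 2 of them were chosen to be: Lgals1 stood at 1783 and 1645 CPM against 256 and 360 CPM, and Ccr2 at 249 and 373 CPM against 20.8 and 30.6 CPM. That the cells migrate was not measured.

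To ask what sets these cells apart, summed counts of class and other cells were compared within each library, for 6974 genes with at least 500 UMIs over all cells. A ratio of at least 2 in both libraries was found for 36 genes (0.516% of those tested), and of at most 1/2 in both for 50 genes (0.717%). The rule genes are not among them. The median log2 ratio of all genes was -0.01 in control and -0.03 in rescued cells. In what follows, paired values are given in the order control, then rescued, unless stated. Where a 95% counting interval of a log2 ratio is given, it stands in brackets as 2 limits joined by "to". Bracketed values without a unit that follow a gene name and are joined by "and" are the log2 ratios themselves.

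**Figure D3:**
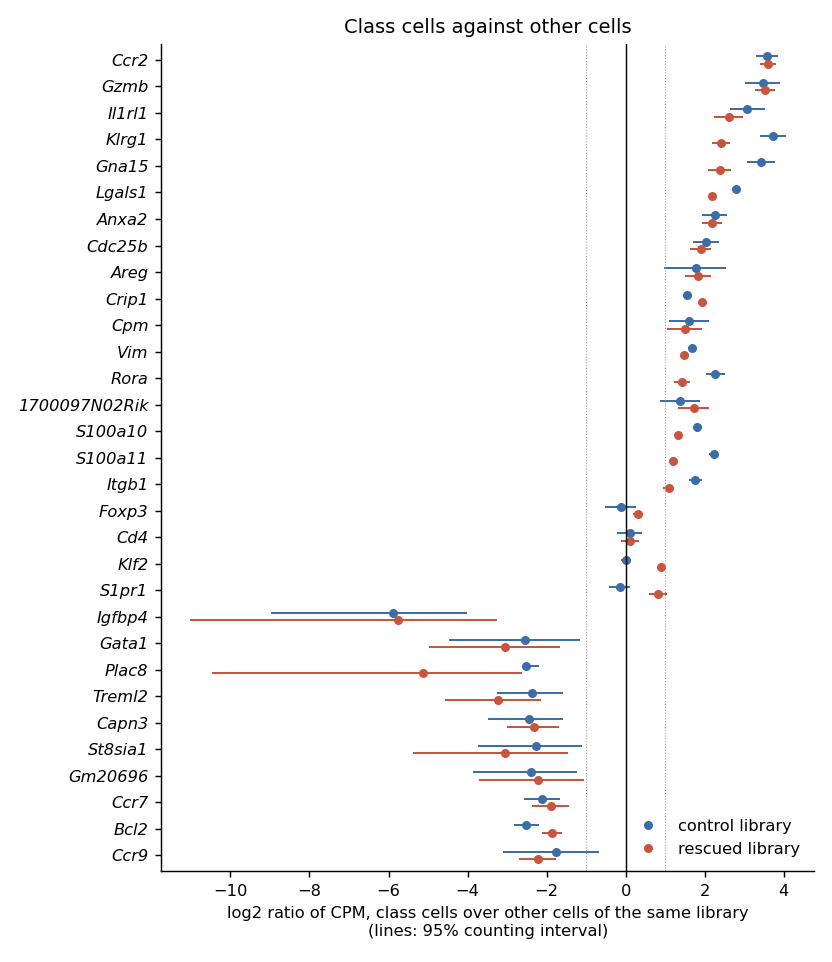
Log2 ratio of CPM in class cells over the other cells of the same library (points, with 95% counting intervals as lines cut at -11) for the 25 genes named by rule, 15 higher and 10 lower, and 6 further genes between them. Blue is the control and red the rescued library, and dotted lines mark 2-fold. Ccr2 leads at 3.58 and 3.61, Foxp3 and Cd4 lie near 0, and Igfbp4 rests on 2 and 1 class UMIs, while the Plac8 point of the control library is a bound at 0 UMIs.

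The gene that led by rule was the chemokine receptor gene Ccr2. At chr9:124101950-124113557 (ENSMUSG00000049103), it had log2 ratios of 3.58 (3.33 to 3.83) and 3.61 (3.43 to 3.79). A Ccr2 UMI was found in 62 of 136 control class cells (45.6%) and 143 of 245 rescued class cells (58.4%), against 2.52% and 5.12% of the other cells. When each cell was thinned to 2000 UMIs the shares were 30.9% and 41.6% against 1.60% and 3.18%, and the class stayed far above the other cells. The sparser receptors of this list varied. Ccr10, a receptor of skin- and mucosa-homing T cells, had 13 and 105 class UMIs (14.3 and 59.3 CPM against 0.344 and 2.98 CPM), and 5 cells held 84.6% and 49.5% of them. Cxcr6 was 113 and 32.8 CPM against 5.92 and 6.25 CPM, with log2 ratios of 4.26 (3.83 to 4.69) and 2.39 (1.89 to 2.89). Ccr3 had log2 ratios of 4.45 (3.23 to 5.71) and 3.38 (2.80 to 3.98) on 15 and 59 class UMIs. Ccr8, a receptor of skin and tissue T cells, had 5 and 8 class UMIs, at 5.5 and 4.52 CPM against 1.99 and 3.92 CPM, and its log2 ratios of 1.46 (-0.26 to 2.85) and 0.20 (-1.08 to 1.29) had intervals that held 0.

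The gut receptor Ccr9 went the other way, at 7.70 and 26.0 CPM against 26.0 and 120 CPM, with log2 ratios of -1.76 (-3.08 to -0.70) and -2.21 (-2.67 to -1.79). In control this order turned when cells with a Tmem176a or Tmem176b UMI were admitted (0.52). Cxcr3, the receptor of type 1 inflammation, was 278 and 265 CPM in the class against 72.6 and 209 CPM outside. Ccr4 was 46.2 and 52.6 CPM against 13.1 and 37.4 CPM, and Ccr6 69.3 and 50.9 CPM against 26.8 and 39.7 CPM. Of 8 measured tissue-homing receptors above the minimum, 6 were higher in both libraries (32.4% of all genes tested were), with Ccr2 past 2-fold and Ccr9 past 2-fold the other way. Their median log2 ratios were 1.16 and 0.35.

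Among integrins, Itgb1, the β1 chain that pairs with several α chains for binding of matrix and vascular ligands, was 493 and 408 CPM against 145 and 192 CPM. Its log2 ratios were 1.77 (1.62 to 1.91) and 1.09 (0.97 to 1.21). Itgb7, the partner of α4 and αE, was 938 and 933 CPM against 515 and 608 CPM. Itgae, which encodes the αE chain CD103 that binds epithelial E-cadherin, was 183 and 376 CPM against 71.8 and 314 CPM. Itga4 (0.19 and 0.01) and Itgb2 (0.09 and 0.09) lay near 0, and Itga6 was lower (-0.66 and -0.57). Of 19 adhesion genes 12 were higher in both libraries (32.4% of all genes), but Itgb1 was the only one of them past 2-fold in both, and their medians were 0.28 and 0.08.

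The genes of the S100-high programme were mostly higher in the class. This list of 23 genes was compiled with earlier results of these data known, so its count is no independent evidence. Of 19 members above the minimum, 18 were higher in both libraries (32.4% of all genes), 10 of them past 2-fold in both, and the medians were 1.55 and 1.03. Lgals1 (chr15:78926725-78930465), which encodes galectin-1, had log2 ratios of 2.80 (2.72 to 2.89) and 2.19 (2.12 to 2.26). With the other cells weighted to the depth of the class these were 2.31 and 1.71. Vim, at 1934 and 2170 CPM against 607 and 782 CPM, had 1.67 (1.60 to 1.74) and 1.47 (1.42 to 1.53). Crip1, at 2363 and 2643 CPM against 804 and 689 CPM, had 1.55 (1.49 to 1.62) and 1.94 (1.89 to 1.99).

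S100a10, whose protein forms a complex with annexin A2, was 3743 and 3858 CPM against 1076 and 1550 CPM. Annexin A2 itself (Anxa2) was 148 and 137 CPM against 31.1 and 30.3 CPM, log2 ratios of 2.26 (1.97 to 2.54) and 2.18 (1.95 to 2.41). S100a11 had 2.23 (2.13 to 2.32) and 1.20 (1.13 to 1.27), and S100a13, in the same chromosome 3 cluster, 1.09 (0.95 to 1.23) and 0.89 (0.79 to 1.00). Thus 5 S100a genes of chromosome 3 had at least 500 UMIs, and the 3 that the rule did not use were all higher in the class. Rarer members were higher too, below the minimum of 500 UMIs: Lgals3 at 109 and 64.4 CPM against 4.54 and 5.88 CPM, Anxa1 at 36.3 and 24.3 CPM against 1.03 and 1.31 CPM, and the nuclear lamina gene Lmna at 55.0 and 66.1 CPM against 6.19 and 5.52 CPM. The exception was Plac8, with 0 and 1 class UMIs against 18.8 and 19.8 CPM outside. In control it was at least 5.71-fold lower (3 counts over the class taken as the limit), but with cells holding a Tmem176a or Tmem176b UMI admitted the log2 ratio turned to 0.17, and in rescued cells the log2 ratio was -5.13 (-10.44 to -2.64).

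Genes of actin and cell motility were higher by small amounts that ran the same way. Of 39 members 34 were higher in both libraries (32.4% of all genes) and 2 passed 2-fold in both, with medians of 0.30 and 0.34. The 2 were the actin cross-linker Flna, at 287 and 231 CPM against 130 and 110 CPM, and Myo1f, a class I myosin of blood cells, with log2 ratios of 2.89 (2.54 to 3.24) and 1.28 (1.03 to 1.52). Actg1 (0.91 and 0.80) and the Arp2/3 subunit Arpc1b (0.64 and 0.53) were among the others. Tagln2, an actin-binding protein of the S100-high list, had 1.1 (0.95 to 1.24) and 1.03 (0.92 to 1.15).

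**Figure D4:**
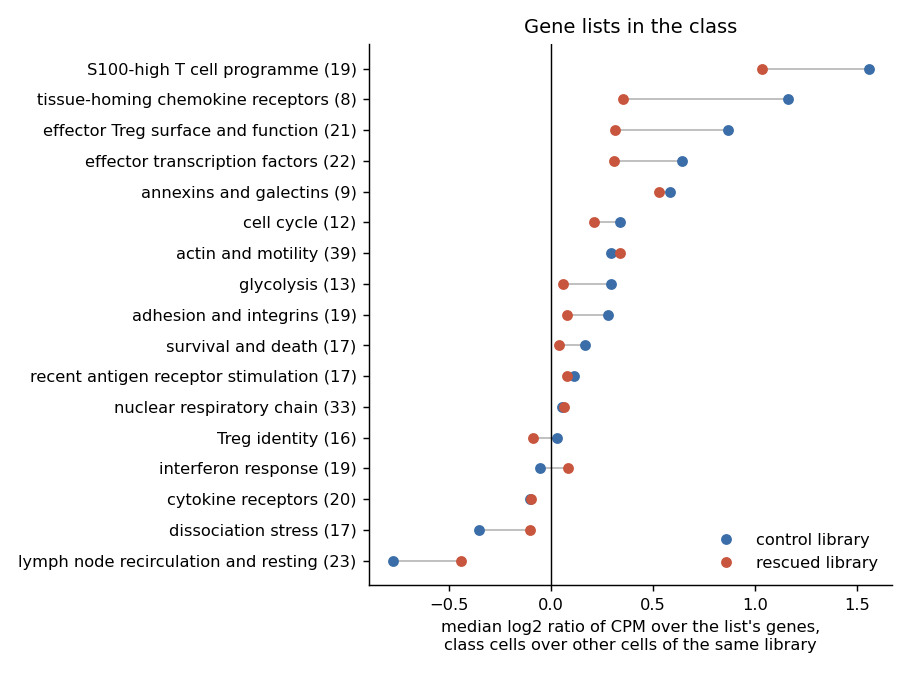
Median log2 ratio of CPM, class over other cells, for each gene list with at least 8 members above the minimum (number in brackets), in the control (blue) and rescued (red) library. The S100-high programme stands at 1.55 and 1.03, and the recirculation and resting list at -0.77 and -0.44.

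Of 20 cytokine receptors 6 were higher in both libraries (32.4% of all genes tested were) and 11 lower in both (38.2% of all genes), with medians of -0.10 and -0.10. The 2 past 2-fold higher in both were Il1rl1 and Il18r1. Il1rl1, which encodes the IL-33 receptor ST2 found on tissue Treg cells, was 81.4 and 73.5 CPM against 9.63 and 12.1 CPM, log2 ratios of 3.08 (2.65 to 3.5) and 2.61 (2.26 to 2.95). The IL-18 receptor gene Il18r1 was 246 and 124 CPM against 49.1 and 53.8 CPM. The IL-2 receptor chain gene Il2ra was among the lower members at 159 and 281 CPM against 287 and 370 CPM.

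Effector genes of Treg cells were higher in part. Klrg1, an inhibitory receptor of terminally differentiated Treg cells, was 191 and 178 CPM against 14.4 and 33.4 CPM. It was found in 28.7% and 34.3% of class cells against 2.37% and 6.42% of the others. Gzmb, which encodes granzyme B, had log2 ratios of 3.47 (3.05 to 3.88) and 3.52 (3.29 to 3.76), but 5 cells held 58.8% and 55.5% of its class UMIs, and without them the ratios were 2.19 and 2.35. Areg, the tissue-repair factor amphiregulin, had 1.79 and 1.82, with 78.9% and 69.2% of its UMIs in 5 cells. Without those cells it was -0.46 and 0.12, so that its difference rested on them. Icos (1.67 and 0.70), Fgl2 (2.20 and 0.68) and the cytotoxic T lymphocyte antigen gene Ctla4 (0.53 and 0.31) were higher in both. Of 21 effector surface and function genes 14 were higher in both (32.4% of all genes) and 4 past 2-fold in both, with medians of 0.87 and 0.31.

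Of 22 effector transcription factors 14 were higher in both libraries (32.4% of all genes) and 1, Rora, passed 2-fold in both. Rora, at 252 and 204 CPM against 52.4 and 76.0 CPM, had log2 ratios of 2.26 (2.05 to 2.48) and 1.42 (1.25 to 1.60). Prdm1, which encodes Blimp-1, was 70.4 and 79.7 CPM against 14.9 and 53.8 CPM. Maf (1.42 and 0.49), Id2 (2.18 and 0.94) and Gata3 (0.75 and 0.53) were higher, and Id3 lower (-0.89 and -0.88). The remaining genes named by rule were Gna15, a G protein subunit of blood cells (3.43 and 2.37), the cell cycle phosphatase Cdc25b (2.04 and 1.90), the carboxypeptidase gene Cpm (1.61 and 1.5) and 1700097N02Rik (1.39 and 1.72). Mki67, a marker of cycling cells, was 31.9 and 54.8 CPM against 7.15 and 11.3 CPM, on 29 and 97 UMIs, while 12 cell cycle genes above the minimum had medians of 0.34 and 0.21.

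Genes of recirculating and resting T cells were lower, with exceptions that differed between the libraries. Of 23 members 15 were lower in both (38.2% of all genes), 7 past 2-fold in both and 0 past 2-fold higher, with medians of -0.77 and -0.44. Ccr7 (chr11:99144196-99155077), which guides T cells into lymph nodes, was 52.8 and 26.0 CPM against 227 and 96.5 CPM, log2 ratios of -2.11 (-2.55 to -1.70) and -1.89 (-2.35 to -1.47). Igfbp4, an insulin-like growth factor binding protein, had only 2 and 1 class UMIs, at 2.20 and 0.565 CPM against 130 and 30.7 CPM, which gave -5.89 (-8.93 to -4.03) and -5.76 (-11.07 to -3.28). The survival gene Bcl2 was 110 and 90.4 CPM against 627 and 328 CPM. Bach2, a repressor that maintains resting T cells, was 11 and 9.04 CPM against 82.9 and 26.8 CPM, and Tcf7 144 and 42.4 CPM against 246 and 96.9 CPM.

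Klf2 and its target S1pr1, the receptor with which T cells leave lymph nodes, did not follow. Klf2 was 847 CPM in the control class and 845 CPM in the other control cells, but 678 CPM in the rescued class and 362 CPM in the other rescued cells, log2 ratios of 0.00 (-0.10 to 0.11) and 0.91 (0.81 to 1.00). S1pr1 had -0.15 (-0.40 to 0.09) and 0.82 (0.62 to 1.02). S1pr4, a further sphingosine 1-phosphate receptor, was higher in both (0.95 and 1.18). Satb1, a chromatin organiser, was 71.5 CPM against 243 CPM in control and 109 CPM against 102 CPM in rescued cells. The difference between the libraries in these ratios was not tested.

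Treg identity genes went both ways. Of 16 members 6 were higher in both libraries (32.4% of all genes) and 6 lower in both (38.2%), with medians of 0.03 and -0.09. The higher were Ikzf2, Ctla4, Tnfrsf18, Nrp1, Cd4 and Swap70, by log2 ratios from 0.11 to 0.69. Gpr83 was 18.7 and 48.0 CPM against 102 and 136 CPM, Capn3 12.1 and 13 CPM against 66.5 and 64.5 CPM, and Lrrc32, which encodes the TGF-β carrier GARP, 29.7 and 110 CPM against 97.5 and 192 CPM. Of the list, Gpr83 and Capn3 passed 2-fold lower in both libraries and 0 genes 2-fold higher. Gata1 (-2.56 and -3.05), Treml2 (-2.36 and -3.23), the ganglioside synthase gene St8sia1 (-2.26 and -3.06) and Gm20696 (-2.40 and -2.23) completed the lower genes named by rule, each on 14 or fewer class UMIs in either library.

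The tdTomato reporter, designed to mark cells that recombined after 4-OHT and their descendants, was also higher in the class. It was 566 and 969 CPM against 379 and 624 CPM, log2 ratios of 0.58 (0.45 to 0.71) and 0.64 (0.56 to 0.71). A tdTomato UMI was found in 84.6% of control class cells against 62.1% of other control cells, and in 71.8% of rescued class cells against 54.6% of other rescued cells. Thinned to 2000 UMIs, the shares were 59.6% against 44.5% and 54.7% against 41.4%. The order of class and other cells was the same on each of these scales, whereas the order of the libraries was not, and none was read. The libraries hold no cell type known to lack the transcript, so no background share can be computed from them. By flow cytometry, the paper reports tdTomato in only a small minority of control Treg cells at the time of analysis, and in most rescued ones. The control shares with a UMI, 84.6% in the class and 62.1% outside, were far above that minority. The reason was not tested, and a cell with a tdTomato UMI is not read here as a descendant of a recombined cell.

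To show how other genes ran with the rule genes, cells of each library were ranked by the share of their UMIs that S100a4 and S100a6 took and divided into 10 equal bins, with all cells at 0 UMIs of both genes joined in 1 bin. In control 2779 cells had 0 UMIs of both, and 135 of the 136 class cells fell in bin 10, the highest. Lgals1 was 162 CPM at 0 UMIs, 387 CPM in bin 9 and 1364 CPM in bin 10. In the rescued library 1641 cells had 0 UMIs of both, and bins 10, 9 and 8 held 199, 38 and 8 class cells. There Lgals1 was 187 CPM at 0 UMIs, 409 CPM in bin 8, 725 CPM in bin 9 and 1836 CPM in bin 10. Ccr2 ran likewise from 6.30 through 24.1 and 97.0 to 399 CPM, and Crip1 from 430 through 806 and 1258 to 2853 CPM.

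Igfbp4 fell off over the same order, from 157 CPM at 0 UMIs to 28.3 CPM in bin 9 and 3.57 CPM in bin 10 in control, and from 49.0 CPM to 0.510 CPM in bin 10 in rescued cells. Klf2 in the rescued library was 272 CPM at 0 UMIs, 154 CPM in bin 5, and 368 and 370 CPM in bins 6 and 7. In bins 8, 9 and 10 it was 433, 544 and 771 CPM. Bin 5 held 54 deep cells, with a median of 8334 UMIs against 3617 in the cells at 0 UMIs. Foxp3 changed little, from 427 to 543 CPM in rescued and from 84.6 to 71.5 CPM in control cells. The place of the class in the upper bins is fixed by the rule and says nothing of whether it is a separate group. In the rescued library Lgals1, Ccr2, Crip1 and Klf2 changed over several bins. In control the course differed by gene. There Lgals1 and Igfbp4 also changed before bin 10, but Crip1 was 763 CPM at 0 UMIs, 670 CPM in bin 9 and 1894 CPM in bin 10. Control Ccr2 was 2.71, 17.01 and 233 CPM in the same bins, and control Klf2 895, 681 and 758 CPM.

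The class was mixed in its own right. Neither Ccr2, Klrg1, Gzmb nor Itgae was detected in 44 of 136 control and 27 of 245 rescued class cells. A Klrg1 UMI was found in 40.3% of control class cells with a Ccr2 UMI and in 18.9% of those without, and in 39.9% and 26.5% in the rescued library. The cells with Ccr2 were not deeper in control (median 5874.5 against 6176 UMIs) and were somewhat deeper in rescued cells (6485 against 5784).

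Class cells with a Ccr2 UMI (62 control, 143 rescued) had more of several class genes than those without (74 and 102), genes picked here after their values were seen. Crip1 was 3046 and 3365 CPM against 1800 and 1507 CPM, Vim 2495 and 2843 CPM against 1471 and 1113 CPM, and Lgals3 183 and 101 CPM against 48.1 and 7.27 CPM. S100a4 itself, of which every class cell was chosen to hold at least 5 UMIs, was 4421 and 3600 CPM against 2997 and 2299 CPM. Lmna, Cxcr6, Ccr10, Il1rl1 and Klrg1 were also higher with Ccr2 in both libraries, Il1rl1 by log2 ratios of 0.92 (0.21 to 1.64) and 1.99 (1.26 to 2.79).

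Other genes, picked in the same way, were higher in the cells without Ccr2. The decoy receptor gene Il1r2 was 128 and 91.5 CPM against 7.31 and 25.9 CPM with Ccr2, and Penk, which encodes proenkephalin, 347 and 72.7 CPM against 36.6 and 30.5 CPM. In control 5 class cells held 82.1% of the Il1r2 and 88.3% of the Penk UMIs. Nr4a1, Myc and the inhibitory receptor gene Pdcd1 were lower with Ccr2 in both libraries, at log2 ratios of -2.04 and -1.35, -1.77 and -1.93, and -1.28 and -1.44. The costimulatory receptor genes Tnfrsf9 (-1.76 and -0.45) and Tnfrsf4 (-1.25 and -0.39) went the same way. Foxp3 did not differ beyond its counting interval, at -0.15 (-0.89 to 0.58) and 0.00 (-0.18 to 0.19).

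Rescued and control cells were then compared inside the class, for 4441 genes with at least 100 class UMIs. The ratio of rescued to control was at least 2 for 18 genes (0.405%) and at most 1/2 for 12 genes (0.27%), and the median of all genes was 0.00. Much of what distinguished the libraries among the other cells was smaller here. Of 44 genes at least 2-fold higher in rescued than in control other cells, 37 were also higher in the class (50.2% of all genes tested were). Only 5 passed 2-fold there, and the median log2 ratio was 1.40 outside and 0.49 inside. Of 10 genes at most 1/2 outside, 8 were lower in the class (2210 of all 4441 genes were) and 1 passed 2-fold, with medians of -1.20 and -0.42. These genes were chosen on the other cells, so values nearer 0 in the class are partly what such a choice gives, and the gap was not tested.

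**Figure D5:**
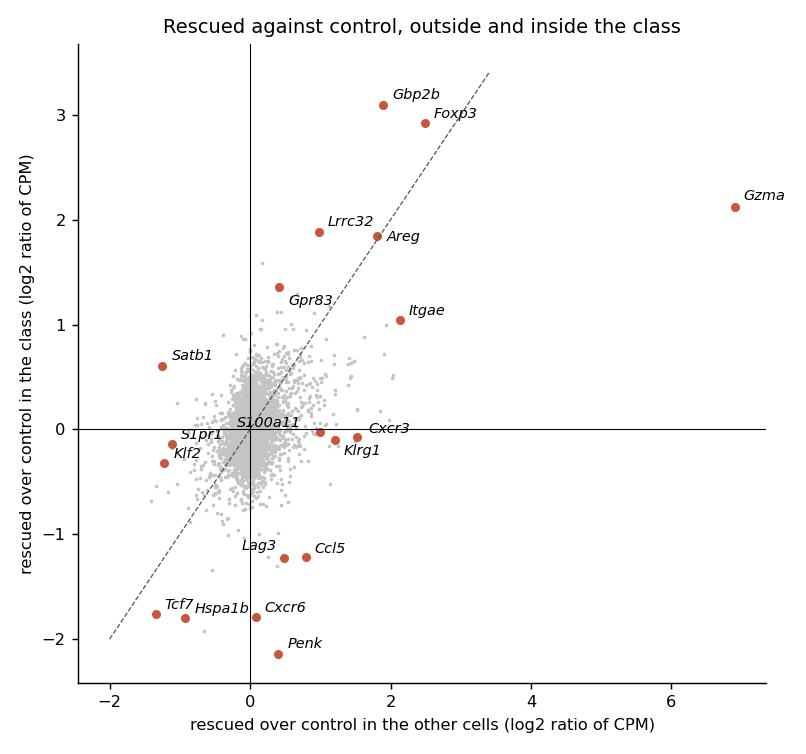
Log2 ratio of CPM, rescued over control, in the other cells (x axis) and in the class (y axis) for genes with at least 500 UMIs over all cells and 100 in the class (grey), with named genes in red and equality as a dashed line. Foxp3 lies at 2.49 outside and 2.92 inside, Cxcr3 at 1.52 and -0.07, and Penk at 0.40 and -2.14, while the Gzma point rests on 5 control and 4 rescued class cells.

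The S100-high programme had a smaller median difference between the libraries inside the class than outside. Class cells of both libraries were chosen at the same S100a4 and S100a6 threshold, which can by itself bring genes that run with these 2 closer together, and the gap was not tested. Its 20 members with enough class UMIs had a median rescued to control log2 ratio of -0.04 inside and 0.36 outside, and 0 passed 2-fold. Lgals1 was 1783 CPM in control and 1645 CPM in rescued class cells (-0.12, -0.20 to -0.03), S100a10 3743 and 3858 CPM (0.04, -0.02 to 0.10), and S100a11 1333 and 1311 CPM (-0.02, -0.13 to 0.08). Outside the class S100a10 and S100a11 were 0.53 and 1.00 higher in rescued cells on the log2 scale. Klrg1 (-0.10 inside, 1.21 outside), Cxcr3 (-0.07 and 1.52), Maf (0.02 and 0.94), Prdm1 (0.18 and 1.85) and Ahnak (-0.05 and 0.92) had the same pattern. For the resting genes the medians were -0.15 inside and -0.79 outside, with Klf2 at -0.32 and -1.22, S1pr1 at -0.14 and -1.11, and Satb1 at 0.61 and -1.25.

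Treg identity genes had a median log2 ratio of rescued to control of 0.40 inside the class and 0.38 outside. Foxp3 was 74.8 CPM in control and 566 CPM in rescued class cells, a log2 ratio of 2.92 (2.56 to 3.30), and a Foxp3 UMI was found in 33.8% and 86.1% of class cells. Outside the class the Foxp3 ratio was 2.49. Lrrc32 had 1.88 (1.30 to 2.52) inside and 0.98 outside, Gpr83 1.36 (0.60 to 2.21) and 0.41, Il2ra 0.82 (0.55 to 1.09) and 0.37, and Ctla4 0.65 (0.48 to 0.83) and 0.87. The CD39 gene Entpd1, of the effector list, had 1.29 (0.60 to 2.04) and 0.66. These differences between inside and outside were not tested. Of the 14 identity genes with enough UMIs 12 were higher in rescued class cells (50.2% of all genes tested were), 3 of them past 2-fold. Of these 3, Gpr83 and Lrrc32 had few control UMIs once the cells with most were left out, as given below. Itgae was 183 and 376 CPM, a log2 ratio of 1.04 (0.79 to 1.30), against 2.13 outside, and it was found in 41.2% and 73.1% of class cells. Ccr2 was 0.59 (0.37 to 0.81) higher in rescued class cells and 0.56 outside.

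The other genes higher in rescued class cells were Gbp2b, an interferon-induced GTPase, at 6.60 and 56.5 CPM (3.10, 1.93 to 4.58), Ccr10 (2.05, 1.22 to 3.01), the cytokine feedback inhibitor Socs3 (1.27, 0.88 to 1.67), and Areg, Nr4a1 and Gzma. The last 3 rested on few cells, since 5 control cells held 78.9%, 72.2% and 100% of their UMIs. Gbp2b and Ccr10 rested on few control cells too, as did Gpr83. Without the 7 control and 12 rescued class cells with most UMIs of the gene, 0 control UMIs remained for each. The rescued UMIs left were 18, 23 and 45. By the same trimming Lrrc32 kept 11 control and 122 rescued UMIs, and Entpd1 9 and 70. Over the alternatives the lowest log2 ratio was 0.95 for both Gpr83 and Entpd1. Gzma had 11 UMIs in 5 control and 93 UMIs in 4 rescued cells. With thresholds scaled to a common cell total, Areg (-0.46) and Gzma (-0.64) turned.

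Lower in rescued class cells were Tcf7, at 144 and 42.4 CPM (-1.77, -2.19 to -1.34, with -1.35 outside), and Tbc1d4, a Rab GTPase regulator (-1.34, with -0.54 outside). Cxcr6 was 113 and 32.8 CPM (-1.79, -2.28 to -1.31) and did not differ outside (0.08, -0.37 to 0.53). Ctla2a (-1.30), Galm (-1.22), the chemokine gene Ccl5 (-1.22) and the inhibitory receptor gene Lag3 (-1.22) were lower inside and higher outside (0.39, 0.25, 0.79 and 0.49). The cytotoxic granule gene Nkg7 (-1.92) and the heat shock gene Hspa1b (-1.80) were lower in both. Penk was 207 and 46.9 CPM (-2.14, -2.53 to -1.76), with 88.3% of the control UMIs in 5 cells, and with scaled thresholds it turned to 0.38. Ccl5, Nkg7 and Lag3 were also uneven, with 68.4%, 64.8% and 63.3% of control UMIs in 5 cells. When the 5% of class cells with most UMIs of a gene were left out in each library, Cxcr6 was -3.21, Ccl5 -0.60, Lag3 -0.70 and Penk -0.96, and Foxp3 was 3.13.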

How the data were processed

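Treg cells were profiled with the 10x Chromium 3′ v3 kit, 1 library per group. The authors processed reads with Cell Ranger 3.0 against mm10 with the tdTomato sequence added, and the deposited counts are UMIs per cell and gene, without normalization, for 7024 cells and 16098 genes. All deposited cells were used, assigned to a library by the prefix of their names. Summed class UMIs were 909171 in control and 1769530 in rescued cells. The authors' normalized table was not used.

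The members, the gene lists and the alternatives were chosen with earlier results of these data known. Counts were summed over cells, divided by the summed total and expressed as CPM. Ratios carry conditional exact 95% intervals and shares Clopper-Pearson intervals, both covering counting error only. A count of 0 was replaced by 3 for a bound. Genes needed 500 UMIs over all cells, or 100 in the class for rescued against control. Genes named by rule were the 15 highest and 10 lowest against other cells, by the ratio nearer 0 of the 2 libraries, and the 10 highest and 10 lowest between libraries. Left out were the rule genes and those of mitochondria, ribosomal proteins, antibodies and T cell receptors, and some genes are not reported here. Any gene of the 22 lists and 10 marker lists could also be named. Doublet scores were computed per library with Scrublet in scanpy 1.11.5. The ratio code was tested on simulated counts. Alternatives changed the thresholds, depth weighting, scaling, gene minimum and cells kept. Python 3.11.15, scipy 1.17.1 and pandas 2.3.3 were used.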

Additional observations from a re-analysis of the deposited data

Results flagged for a closer look

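The class differed from the other cells in opposite directions in the 2 libraries for 4 genes of the lists, each with both counting intervals off 0 and log2 ratios at least 1 apart. The difference between the libraries was not tested, and each library is 1 sample. Penk had log2 ratios of class to other cells of 2.02 in control and -0.52 in rescued cells, with 88.3% and 61.4% of its class UMIs in 5 cells. Bhlhe40, a transcription factor of activated T cells, had 1.36 and -0.43, with 48.9% and 56.9% in 5 cells. Lag3 had 0.61 and -1.10, with 63.3% and 36% in 5 cells. Ifit1, an interferon-induced gene, had -0.63 and 0.65, with 65.2% and 50.9% in 5 cells.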

How the results depend on the processing

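No paired analysis was possible because only 1 library was made per group. The rescued to control ratio of class shares was 1.93 and ran from 1.73 to 2.03 over the alternatives. The shares in control and rescued cells were 5.06 and 9.91% with thresholds of 3 UMIs, 2.70 and 4.84% with 8, 2.97 and 5.19% with scaled thresholds, 5.56 and 10.4% without cells above 10% mitochondrial UMIs, and 1.73 and 2.99% without cells holding any of 11 markers of other cells. That last setting left 30 and 42 class cells, since Cst3 and Cd8b1 are found in many of these T cells. Without those 2 markers, an alternative chosen after seeing the data, 135 and 236 were left.

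Genes higher and lower in the class numbered 109 and 148 with a minimum of 100 UMIs, 13 and 14 with 2000, and 20 and 25 without cells of high mitochondrial share. That last setting kept 2229 control and 2248 rescued cells, to which the minimum of 500 UMIs was applied. Scaled thresholds gave 101 lower genes and the 11 markers 22 higher genes. Genes higher and lower in rescued class cells numbered 177 and 109 with a minimum of 20 class UMIs and 2 and 1 with 500. The number higher was 9 with thresholds of 8 and 10 with scaled thresholds, and the 11 markers gave 10 and 3. Of the 18 higher genes, 6 recurred with thresholds of 8, 5 with scaled thresholds and 2 with the 11 markers. Of the 12 lower genes 9, 8 and 1 did. With comparison cells weighted to the same depth, 25 of the 36 genes higher and 36 of the 50 lower in the class recurred. Between the libraries 17 of the 18 and all 12 did. The Ccr2 share of class cells was 30.9 and 41.6% after thinning. The cause of these shifts was not tested.

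Of 25 genes named against other cells, 23 kept their direction under every alternative listed above or in the methods, those added after seeing the data apart, in control and 24 in rescued cells, and of 20 between the libraries 17 did. Reversed values of rescued against control were Gzma with thresholds of 8 (-1.20), scaled thresholds for Areg (-0.46), Gzma (-0.64) and Penk (0.38), and Penk without the 11 markers (2.06). Against other cells they were Areg in rescued cells with scaled thresholds (-0.49), Areg in control without 5 cells (-0.46, added after seeing the data), and, with Tmem176 cells admitted, Ccr9 (0.52) and Plac8 (0.17) in control.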

Other observations

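The following genes were picked after their values were seen. Among clock and clock-controlled genes, Arntl was 36.3 and 35.6 CPM in control and rescued class cells against 17.1 and 16.7 CPM in the other cells, log2 ratios of 1.08 (95% counting interval 0.51 to 1.61) and 1.09 (0.67 to 1.5). Cry1 was 48.4 and 44.6 CPM against 23.4 and 18.6 CPM. Clock (-0.06 and 0.18), Dbp (-0.04 and -0.26) and Tef (-0.28 and -0.19) had intervals that held 0 in both libraries.

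The surface genes Cd7 and Cd9 went opposite ways. Cd7 was 60.5 and 68.9 CPM in the class against 27.4 and 31.5 CPM outside, and Cd9 49.5 and 14.1 CPM against 109 and 39.0 CPM. The AP-1 gene Jun, a member of the dissociation stress list, was 140 and 175 CPM against 368 and 358 CPM, log2 ratios of -1.40 (-1.66 to -1.14) and -1.04 (-1.21 to -0.87). Of the 17 genes of that list above the minimum, 10 were lower in both libraries (38.2% of all genes tested were) and 4 higher, with medians of -0.35 and -0.10.

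A T cell receptor β variable gene was detected in 21 control and 39 rescued class cells. Trbv2 was the most frequent, in 28.6% and 20.5% of these, and in 18.1% and 16% of the other cells with such a gene.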
